A study of Homo sapiens with 6 samples.

Results

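The 37 genes described here encode the human machinery that licenses origins, unwinds and copies DNA and supplies its nucleotides. They were listed by symbol, with no filter on their measured values, but with earlier results of these data known. All 37 are among the 41768 named genes of the deposited table. The RNA came from cultures of PANC-1, a widely used human pancreatic ductal adenocarcinoma line, and of a second such line that the labels call 90. From either line there was 1 NC library, and 2 libraries were labelled siALDOA, numbered 1 and 2 here as by the submitters. The label siALDOA was read as a small interfering RNA aimed at ALDOA, the gene of the glycolytic enzyme aldolase A. The sources used here give neither the meaning of 90 and NC nor whether the numbers 1 and 2 mark separate siRNAs or repeats. The labels name neither separate cultures nor a dose or time, so a p-value here reflects the spread among these libraries alone, and that spread may be technical. In bulk RNA, fewer cells in S phase and less RNA per cell cannot be told apart.

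Poly(A)-selected RNA was sequenced, and levels are in FPKM, fragments scaled to gene length and library depth, so genes of different length can be compared. Depth recovered from the low values of short RNAs was 17.7 to 21.8 M fragments per library. ALDOA stood at 36.1% and 43.8% of NC in siALDOA 1 and 2 of 90 and at 55.3% and 50.96% in those of PANC-1. Both lines expressed the epithelial keratins KRT8, KRT18 and KRT19, from 652 FPKM up. KRT7 and CDH1, the gene of E-cadherin, were at 905 to 1350 and 37.95 to 44.5 FPKM in 90 but at 6.24 to 11.5 and 1.18 to 2.05 in PANC-1. Markers of leukocytes other than CD68, of fibroblasts other than THY1, of acinar cells and of endothelial cells other than CDH5 were below 1 FPKM in all 6 libraries, as were endocrine markers other than SST. THY1 was at 5.14 to 7.04 FPKM in PANC-1, CDH5 at 3.004 to 3.28 in 90, SST at 1.67 in siALDOA 1 of PANC-1, and CD68 at 31.3 to 162 in the 6 libraries. Genes were tested with limma, a linear model fitted to all genes at once, on log2(FPKM + 1), if their mean over the libraries was at least 1 FPKM. All 37 replication genes passed this filter, among 12592 tested genes. Calls were made where the p adjusted over all tested genes by Benjamini-Hochberg was under 0.05.

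Before a cell enters S phase, the origin recognition complex with CDC6 and CDT1 loads the ring of MCM2 to MCM7 onto DNA, where it waits as an inactive helicase. In S phase CDC45 and the GINS complex join the ring and turn it into the working helicase. DNA polymerase alpha with its primase lays down primers, replication factor C (RFC) loads the sliding clamp PCNA, and polymerases delta and epsilon extend the strands. Many of these genes are known targets of E2F transcription factors and peak around the start of S phase, and tumour cells in culture usually express them well.

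Transcripts of subunits that work in 1 complex differed in base composition, and this composition recurs in the results below. In the clamp loader, GC content was 41.7% in RFC1 and 53.6% in RFC2. Over the longest GENCODE v29 transcript of each of the 37 genes, GC content ran from 39.1% in RFC3 to 64.97% in POLD1.

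The promoters of many of these genes, of low and of high GC content, held motifs of 1 type. Promoter windows from RefSeq (GRCh38.p14), 250 bases before to 50 after the gene start, were matched for 32 of the 37 genes. The E2F-type motifs TTTCCCGC, TTTGGCGC and TTTCGCGC, searched on both strands, occurred in 17 of the 32 genes (53.1%), against 5.76% of 8688 tested genes and 3.3% of 27305 genes with a window. TTTCCCGC was in 9 genes, TTTGGCGC in 6 and TTTCGCGC in 5, with some genes holding more than 1. The CCAAT box, searched as CCAAT on both strands, was in 19 of 32 (59.4%), against 42.9% of the tested genes. The cell cycle element CHR, searched as TTTGAA and TTCGAA on both strands, was in 1 of 32 (3.12%) in either form, against 12.9% and 2.29%. For 3 genes the 250 bases before the start are shown, with matches to the E2F-type motifs in capitals. POLA1 encodes the catalytic subunit of polymerase alpha, MCM6 a ring subunit of the helicase and POLE the catalytic subunit of polymerase epsilon. They lie at chrX:24693668-24693917 (plus strand), chr2:135876444-135876693 (minus strand) and chr12:132687343-132687592 (minus strand), and each is printed 5′ to 3′ in the direction of its gene.
POLA1: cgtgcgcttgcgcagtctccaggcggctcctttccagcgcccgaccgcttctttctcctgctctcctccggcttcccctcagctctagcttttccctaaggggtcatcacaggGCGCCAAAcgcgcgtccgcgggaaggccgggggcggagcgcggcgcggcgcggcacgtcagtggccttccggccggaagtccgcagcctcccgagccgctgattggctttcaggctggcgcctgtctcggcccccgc
MCM6: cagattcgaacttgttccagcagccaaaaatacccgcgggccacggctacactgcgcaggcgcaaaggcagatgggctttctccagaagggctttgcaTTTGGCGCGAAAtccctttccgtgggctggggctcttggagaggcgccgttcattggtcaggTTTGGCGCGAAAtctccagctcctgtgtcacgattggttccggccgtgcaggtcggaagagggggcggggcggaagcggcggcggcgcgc
POLE: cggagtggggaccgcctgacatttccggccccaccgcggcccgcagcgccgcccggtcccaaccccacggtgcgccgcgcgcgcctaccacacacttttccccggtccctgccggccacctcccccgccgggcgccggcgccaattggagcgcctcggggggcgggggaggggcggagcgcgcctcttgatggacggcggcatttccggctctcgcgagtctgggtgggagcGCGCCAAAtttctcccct
In MCM6 the capitals hold 4 matches, since TTTGGCGC and the reverse complement of TTTCGCGC overlap at each of its sites. A match is a run of letters and shows no binding.

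The replication genes were well expressed in both lines. Their median level ran from 24.4 FPKM in siALDOA 2 of PANC-1 to 36.5 in siALDOA 1 of 90, against medians of 6.73 to 9.25 over all tested genes. MCM7, a ring subunit of the helicase, was the highest in 5 libraries, at 170 and 178 FPKM in NC and siALDOA 2 of 90 and 190 to 246 in PANC-1. In siALDOA 1 of 90 PCNA was higher, at 155 FPKM against 134 for MCM7. RFC1 was the lowest in NC of 90, at 1.19 FPKM, GINS4 in siALDOA 1 of 90, at 5.54, and POLA1 in the other libraries, at 0.668 to 3.67. By the gene lengths of GENCODE the lowest values of POLA1 and RFC1 rest on about 80 fragments each.

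**Figure D1:**
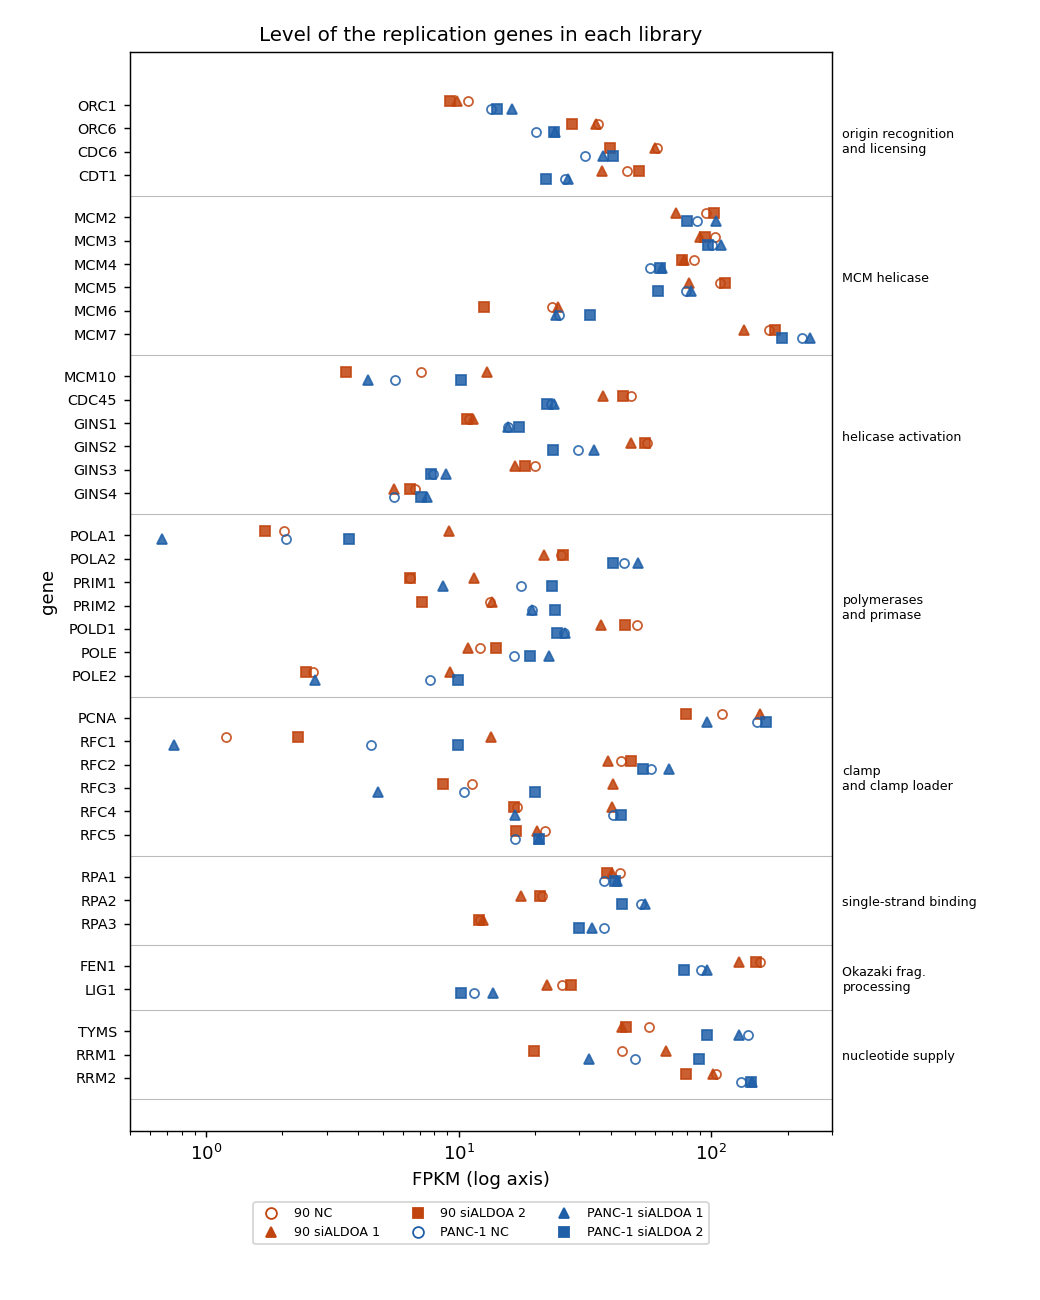
Level of each of the 37 replication genes in the 6 libraries, in FPKM on a log axis, grouped by role. Circles are NC, triangles siALDOA 1 and squares siALDOA 2, in red for 90 and blue for PANC-1; RFC1 spans 0.748 to 13.4 FPKM, while RPA1 stays between 37.6 and 43.4.

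Between the lines, in the fit reported here, replication genes were called about as often as all tested genes, in both directions. Some other settings, given below, called them less often. RPA2 and RPA3 of single-strand binding and TYMS and RRM2 of nucleotide supply were called higher in PANC-1. CDT1, the only called licensing gene, and FEN1 and LIG1 of Okazaki fragment processing were lower. Called genes of helicase activation and the polymerases went both ways. The fit used NC and siALDOA libraries of each line with a term for siALDOA, as NC alone has no replicate. It called 14 of the 37 genes: in PANC-1 7 were higher and 7 lower. Over all tested genes 38.8% were called, 20.4% higher and 18.4% lower, so the share of replication genes called (37.8%) was near the background. An unadjusted p under 0.05 was reached by 20 of the 37 (background 47.3%). The median difference was 0.09 over the 37 genes and 0.13 over all tested genes, on the log2 scale. In 20 of the 37 genes (54.1%) the 3 libraries of 1 line did not overlap those of the other, the same percentage as over all genes (54.1%). Which members differed, by role, is given below.

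Among licensing genes, CDT1, which brings the helicase ring to origins, was lower in PANC-1. It was at 46.5, 36.7 and 51.7 FPKM in NC, siALDOA 1 and siALDOA 2 of 90 and at 26.4, 26.99 and 22.2 in those of PANC-1 (log2 difference -0.80, SE 0.18, limma adjusted p = 0.0212). The values of the lines did not overlap. ORC6, a subunit of the origin recognition complex, was also lower in every PANC-1 library, at 20.2 to 24.1 FPKM against 28.0 to 35.7, but missed the threshold (limma adjusted p = 0.0599). ORC1, its largest subunit, lay the other way at 13.5 to 16.3 FPKM against 9.25 to 10.9 (limma adjusted p = 0.0562). CDC6, the loader that works with CDT1, was at 31.7 to 40.9 FPKM in PANC-1 and 39.8 to 60.7 in 90, and the lines overlapped.

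The ring itself, MCM2 to MCM7, held no called gene. MCM4 was lower in every PANC-1 library, at 56.9 to 63.7 FPKM against 76.3 to 85.1 (limma adjusted p = 0.0549), and MCM7 was higher in each (log2 difference 0.46, SE 0.17, limma adjusted p = 0.0922). MCM2, MCM3, MCM5 and MCM6 overlapped between the lines. MCM6 was the lowest ring subunit in every library, at 12.5 to 24.8 FPKM in 90 and 24.4 to 33.1 in PANC-1. The ratio of the highest to the lowest of the 6 ring subunits ran from 5.43 in siALDOA 1 of 90 to 14.2 in siALDOA 2 of 90.

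The factors that activate the ring held the gene with the lowest difference of the 37. GINS3, 1 of 4 GINS subunits, was at 20.1, 16.6 and 18.3 FPKM in NC, siALDOA 1 and siALDOA 2 of 90 and at 7.89, 8.88 and 7.77 in those of PANC-1. All PANC-1 values lay below all 90 values (log2 difference -1.07, SE 0.15, limma adjusted p = 0.00474). CDC45, the other partner of the active helicase, was at 37.4 to 47.99 FPKM in 90 and 22.4 to 23.9 in PANC-1 (log2 difference -0.87, SE 0.14, limma adjusted p = 0.00685). GINS2 was lower as well, at 23.6 to 34.3 FPKM against 48.04 to 55.6 (log2 difference -0.85, SE 0.18, limma adjusted p = 0.0176). GINS1 ran the other way, at 15.7 to 17.3 FPKM against 10.7 to 11.4 (log2 difference 0.52, SE 0.13, limma adjusted p = 0.0333). GINS4 and MCM10, a scaffold for helicase activation, overlapped between the lines. The GINS subunits thus differed in opposite directions, with GINS2 the highest and GINS4 the lowest of the 4 in each library.

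Among polymerases, the delta catalytic subunit was lower and the alpha accessory and epsilon catalytic subunits were higher in PANC-1. POLD1 was at 36.5 to 50.6 FPKM in 90 and 24.4 to 26.3 in PANC-1 (log2 difference -0.75, SE 0.15, limma adjusted p = 0.0141). POLA2, the accessory subunit of polymerase alpha, was at 21.7 to 25.8 FPKM in 90 and 40.6 to 51.0 in PANC-1 (log2 difference 0.88, SE 0.15, limma adjusted p = 0.00916). POLE was at 10.8 to 14.1 FPKM against 16.6 to 22.8 (log2 difference 0.62, SE 0.17, limma adjusted p = 0.0446). The primase subunits had differences of similar size to POLA2 but larger errors, PRIM2 at 0.88 (SE 0.28, limma adjusted p = 0.0627) and PRIM1 at 0.89 (SE 0.44, limma adjusted p = 0.180). PRIM2 did not overlap between the lines, whereas PRIM1 did.

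The clamp and its loader held no called gene. PCNA was at 79.0 to 155 FPKM in 90 and 95.6 to 165 in PANC-1. RFC2 was higher in each PANC-1 library, at 53.5 to 67.8 FPKM against 39.04 to 48.2 (limma adjusted p = 0.0849). RFC1, RFC3 and RFC4 had standard errors of 0.98, 0.75 and 0.54 on the log2 scale, against 0.16 for RFC2 and 0.17 for RFC5. The libraries of a line lay far apart in the first 3.

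Replication protein A, the trimer that coats single-stranded DNA, differed in 2 of its 3 subunits, and these had the highest differences of the 37 genes. RPA3, the smallest subunit (chromosome 7, 7636518 to 7718607, minus strand), was at 12.1, 12.4 and 12.1 FPKM in NC, siALDOA 1 and siALDOA 2 of 90 and at 37.4, 33.7 and 30.0 in those of PANC-1. RPA2 (chromosome 1, 27891524 to 27914746, minus strand) was at 21.3, 17.6 and 20.97 in 90 and at 52.8, 54.6 and 44.4 in PANC-1. Both were higher in all 3 PANC-1 libraries, RPA3 by 1.39 (SE 0.13, limma adjusted p = 0.00146) and RPA2 by 1.30 (SE 0.15, limma adjusted p = 0.00233) on the log2 scale. RPA1, the large DNA-binding subunit, overlapped at 38.5 to 43.4 FPKM in 90 and 37.6 to 42.2 in PANC-1 (log2 difference -0.01, SE 0.12). The ratio of the highest to the lowest RPA subunit was accordingly 3.19 to 3.58 in 90 and 1.41 to 1.62 in PANC-1.

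FEN1 and LIG1, the Okazaki fragment enzymes among the replication genes described here, were both lower in PANC-1. Of further genes with this role, RNASEH2C was called higher in PANC-1 (log2 difference 0.87, SE 0.19, limma adjusted p = 0.0186). DNA2, RNASEH1, RNASEH2A and RNASEH2B were not called. FEN1, the nuclease that trims the flap, was at 129 to 156 FPKM in 90 and 77.8 to 96.4 in PANC-1 (log2 difference -0.71, SE 0.14, limma adjusted p = 0.0137). LIG1, the ligase that seals the nick (chromosome 19, 48115445 to 48170603, minus strand), was at 25.6, 22.4 and 27.9 FPKM in NC, siALDOA 1 and siALDOA 2 of 90 and at 11.5, 13.7 and 10.3 in PANC-1 (log2 difference -1.04, SE 0.175, limma adjusted p = 0.00861).

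Nucleotide supply was on the higher side in PANC-1 for TYMS and RRM2, though RRM2 kept its call in only 2 of 9 other settings. TYMS, thymidylate synthase (chromosome 18, 657604 to 673578, plus strand), was at 56.6, 44.1 and 46.1 FPKM in NC, siALDOA 1 and siALDOA 2 of 90. In PANC-1 it was at 139, 128 and 96.3, all above the 90 libraries (log2 difference 1.28, SE 0.15, limma adjusted p = 0.00236). In GENCODE v29, 967 of the 2470 exonic bases of TYMS overlap ENOSF1 on the other strand. Whether counting used strand was not stated, so the level of TYMS is uncertain. RRM2, the small subunit of ribonucleotide reductase, was at 79.1 to 105 FPKM in 90 and 131 to 144 in PANC-1 (log2 difference 0.56, SE 0.15, limma adjusted p = 0.0394). RRM2, RPA2, TYMS and FEN1 have pseudogenes named after them in GENCODE v29, with 3, 3, 2 and 1, which can take reads in counting. Among the other called genes, exons shared on the same strand in GENCODE v29 were 2012 of 5726 bases in POLA2 (with AP000944.2), 1077 of 5323 in RRM2 (with AC007240.1) and 426 of 4932 in POLD1 (with AC020909.1), and GINS3 shared 558 of 5105 on the other strand. The levels of these genes are uncertain to that extent, and the remaining called genes shared at most 215 bases. RRM1, the large reductase subunit, was at 19.9 to 65.9 FPKM in 90 and 32.9 to 89.5 in PANC-1.

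**Figure D2:**
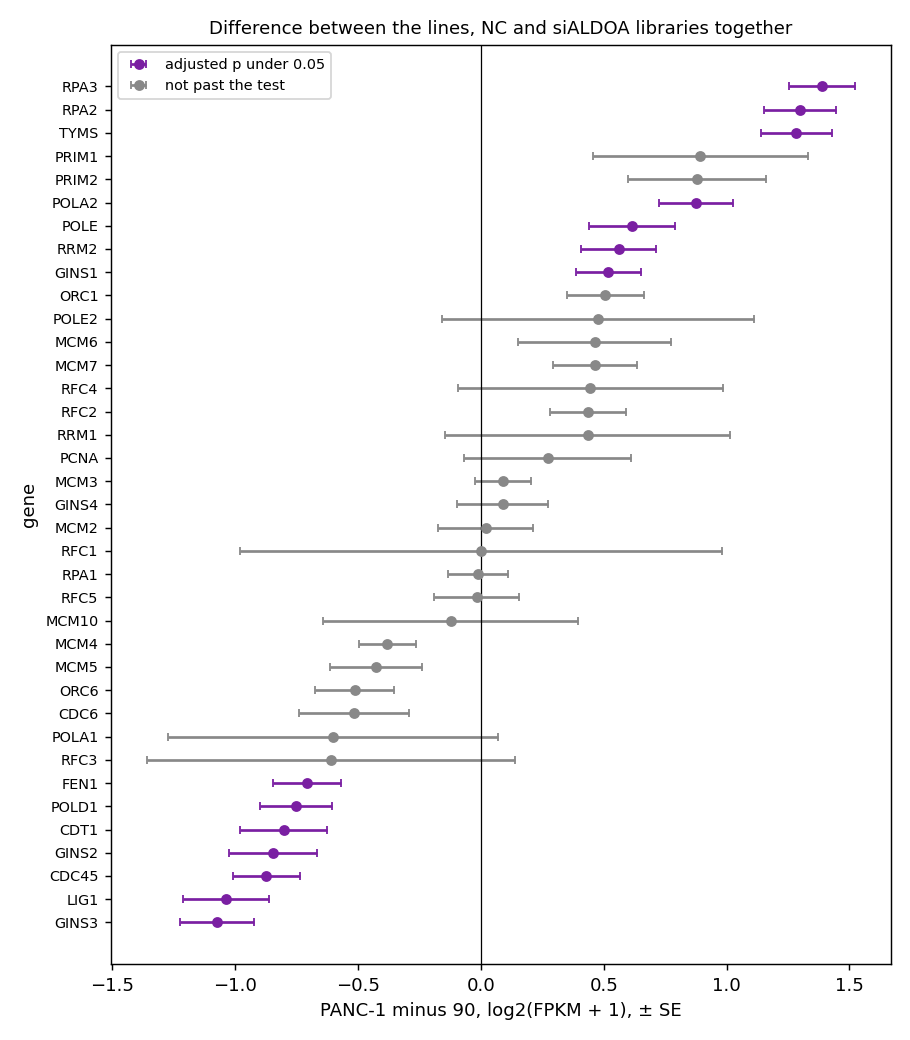
Difference between PANC-1 and 90 for each replication gene on the log2(FPKM + 1) scale, with bars of 1 SE, over 3 libraries per line. Purple genes passed the limma test; RPA3, RPA2 and TYMS stand highest and GINS3 and LIG1 lowest, while RFC1 has a difference of 0.0006 with an SE of 0.98.

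Of the 14 calls, those of RPA2, RPA3 and TYMS held under each of the 9 other settings and each of the 6 left-out libraries that were run. Without 90 NC, or without PANC-1 NC, only these 3 of the 37 genes were called, against 2424 and 2422 of all 12592 tested genes. After scaling by the median ratio 6 of the 37 were called, against 3516 of the 12592. In these settings replication genes were called less often than all tested genes. GINS1, POLE and RRM2 lost the call in each of the 6 left-out libraries, and kept it in 5, 4 and 2 of the 9 other settings. After removal of the trend with GC content 21 of the 37 were called, with 9 higher and 12 lower. Calls rose over all genes too, to 6199 of the 11914 tested there, with 3006 higher and 3193 lower. That set kept 12 of the 14, lost GINS1 and RRM2, and gained ORC1, ORC6, CDC6, MCM4, MCM5, MCM7, PRIM1, RFC2 and RFC3.

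No replication gene was called for siALDOA against NC. Over both lines limma called 0 of the 37 genes and 0.0% of all tested genes, and 0 of the 37 reached an unadjusted p under 0.05 against 0.341% of all genes. Within 90, within PANC-1 and for the difference between these effects, limma also called 0 of the 37 (background 0.0% in each), and 0 reached an unadjusted p under 0.05 (background 0.262%, 0.167% and 0.191%). The median change over both lines was -0.04 for the 37 genes and 0.01 for all tested genes. With 2 siALDOA libraries and 1 NC library per line, only changes well above the spread between siALDOA libraries could be called. ALDOA itself, at 36.1% to 55.3% of NC, was among the tested genes and was not called either. Changes of siALDOA 1 and siALDOA 2 of a line share its NC library.

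TYMS was the 1 gene of the 37 whose siALDOA libraries all lay below the NC of their line, which 5.82% of all tested genes did. From the values above, TYMS stood below NC by 0.35 and 0.29 in siALDOA 1 and 2 of 90 and by 0.12 and 0.53 in those of PANC-1, on the log2 scale. The change over both lines was -0.32 (SE 0.15, limma unadjusted p = 0.0905), with the smallest p among the 37 genes. POLD1 followed at -0.17 (SE 0.16, limma unadjusted p = 0.322), and on the higher side POLE at 0.17 (SE 0.19, limma unadjusted p = 0.400). In 8 of the 37 genes (21.6%), ORC1, ORC6, CDC6, MCM4, GINS4, RFC5, RPA1 and RRM2, both siALDOA libraries were below NC in 90 and above NC in PANC-1 (background 7.3%). The 8 lay between 44.5% and 50.7% GC, and the background was not matched for GC content. The opposite was shown by 0 genes (background 2.61%). No gene of the 37 lay above NC in all 4 siALDOA libraries, against 3.39% of all tested genes. Of the ribonucleotide reductase subunits, RRM2 was at 105, 101.2 and 79.1 FPKM in NC, siALDOA 1 and siALDOA 2 of 90 and at 131, 144 and 144 in those of PANC-1.

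In a subset of the genes siALDOA 1 and siALDOA 2 of a line stood far apart, in opposite directions in the lines. MCM10, POLA1, POLE2, RFC1, RFC3, RFC4 and RRM1 were at least 2-fold higher in siALDOA 1 than in siALDOA 2 in 90, and at least 2-fold lower in PANC-1, on the log2(FPKM + 1) scale. These 7 genes are 18.9% of the 37, and 15.9% of all tested genes did the same. In 90 no other member passed 2-fold between these libraries, and in PANC-1 PRIM1 did (background 20.8% higher in siALDOA 1 in 90, and 18.6% lower in PANC-1). Against NC on that scale, 5 genes (POLA1, POLE2, RFC1, RFC3 and RFC4) were at least 2-fold higher in siALDOA 1 of 90 (background 15.8%). In siALDOA 1 of PANC-1, 3 genes (POLE2, RFC1 and RFC4) were at least 2-fold lower on it (background 10.9%). On the same scale, RRM1 was at least 2-fold lower than NC in siALDOA 2 of 90 (background 0.826%) and 0 genes were higher (background 0.913%). In siALDOA 2 of PANC-1, 0 were higher (background 3.69%) and 0 lower (background 0.373%). That scale understates changes of low genes. In plain FPKM, RFC1 was at 221% of NC in siALDOA 2 of PANC-1. POLA1, RFC3 and PRIM1 were at 32.2%, 45.8% and 49.1% of NC in siALDOA 1 of PANC-1.

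RFC1 moved furthest. Its levels in NC, siALDOA 1 and siALDOA 2 were 1.19, 13.4 and 2.32 FPKM in 90 and 4.49, 0.748 and 9.94 FPKM in PANC-1. RFC3 was at 11.3, 40.6 and 8.69 FPKM in 90 and at 10.5, 4.80 and 19.98 in PANC-1. RFC4 was at 16.9, 40.3 and 16.6 FPKM in 90 and at 40.7, 16.6 and 43.8 in PANC-1. All 3 were highest in siALDOA 1 of 90 within that line and lowest in siALDOA 1 of PANC-1 within its line. RFC2 and RFC5, which sit in the same pentamer, were at 39.04 to 48.2 and 16.9 to 21.9 FPKM in 90 and at 53.5 to 67.8 and 16.8 to 20.8 in PANC-1. The highest of the 5 subunits exceeded the lowest 36.8-fold in NC, 3.03-fold in siALDOA 1 and 20.8-fold in siALDOA 2 of 90, and 12.8-fold, 90.8-fold and 5.38-fold in those of PANC-1.

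The catalytic and accessory subunits of the polymerases parted in the same way. POLA1 (chromosome X, 24693919 to 24996986, plus strand) was at 2.04, 9.18 and 1.71 FPKM in NC, siALDOA 1 and siALDOA 2 of 90 and at 2.08, 0.668 and 3.67 in those of PANC-1. Its partner POLA2 varied from 21.7 to 25.8 FPKM in 90 and from 40.6 to 51.0 in PANC-1. In polymerase epsilon it was the accessory subunit that moved, with POLE2 at 2.66, 9.23 and 2.48 FPKM in 90 and at 7.68, 2.71 and 9.95 in PANC-1. For ribonucleotide reductase, RRM1 was at 44.1, 65.9 and 19.9 FPKM in 90 and at 49.8, 32.9 and 89.5 in PANC-1. The ratio of RRM1 to RRM2 was 0.422, 0.651 and 0.252 in NC, siALDOA 1 and siALDOA 2 of 90 and 0.381, 0.228 and 0.623 in those of PANC-1. MCM10 was at 7.09, 12.9 and 3.57 FPKM in 90 and at 5.60, 4.37 and 10.2 in PANC-1.

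**Figure D3:**
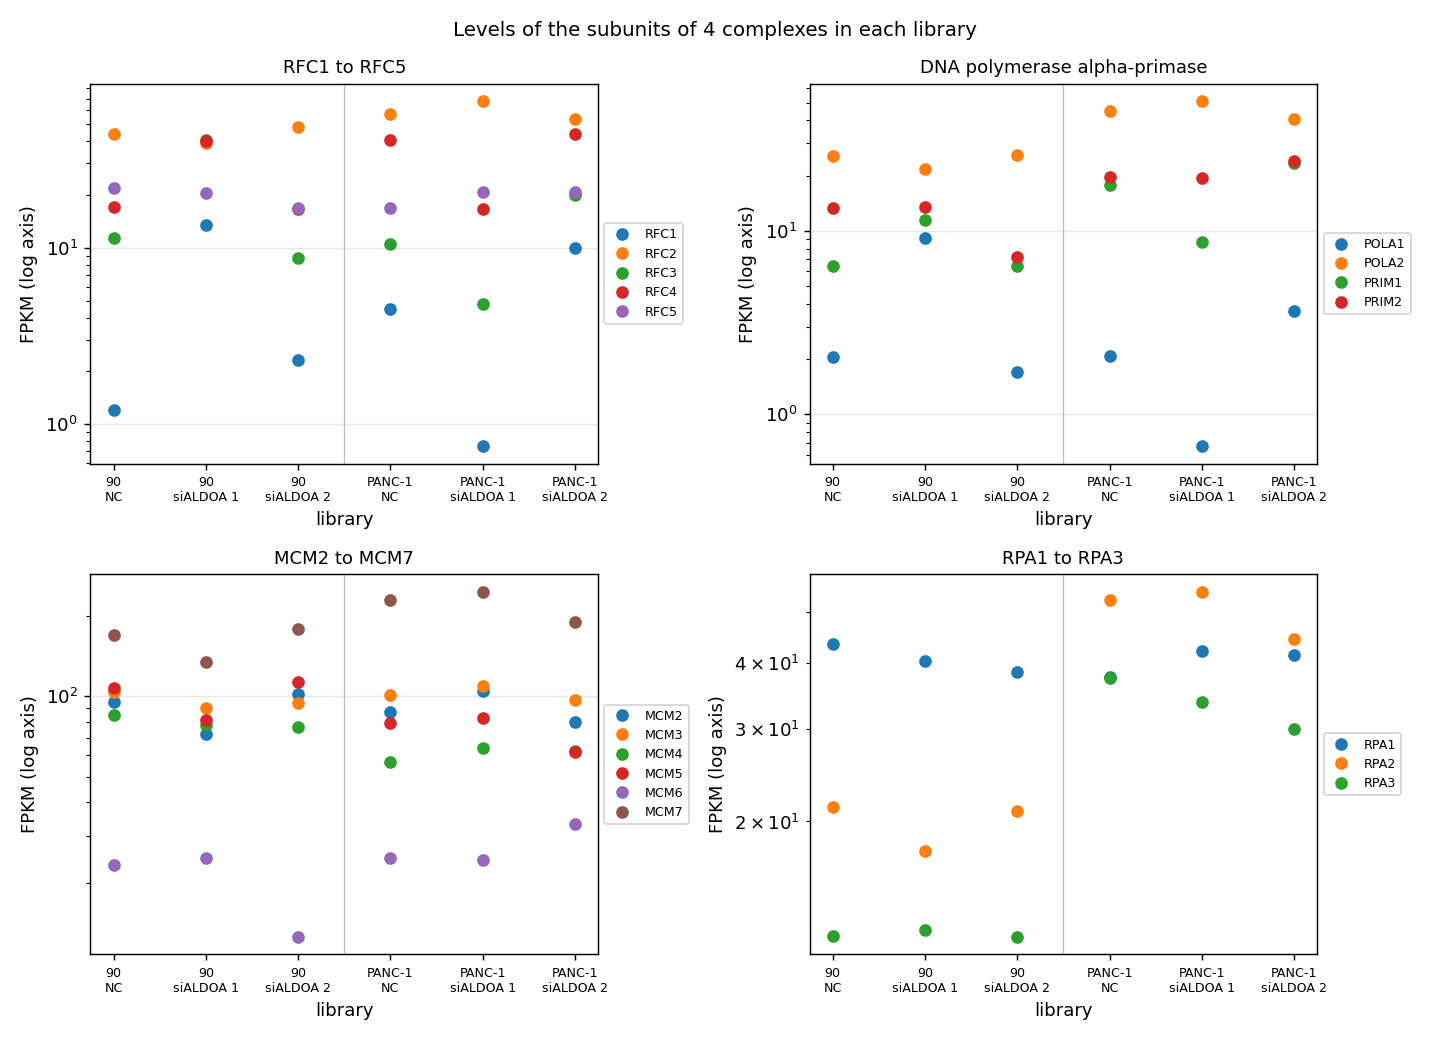
Level of each subunit of the RFC, polymerase alpha-primase, MCM and RPA complexes in the 6 libraries, in FPKM on log axes of different range. In the RFC panel the subunits lie within 3.03-fold in siALDOA 1 of 90 and 90.8-fold apart in siALDOA 1 of PANC-1, while the RPA subunits keep within 3.58-fold in each library.

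The 7 genes that stood apart all had transcripts poor in G and C, with a GC content of 39.1% to 45.4%. In the 11 genes below 44% GC the median change from NC was 0.76 and -0.17 in siALDOA 1 and 2 of 90 and -0.58 and 0.40 in those of PANC-1. All 3592 tested genes of that range had medians of 0.98, -0.06, -0.67 and 0.48, of the same sign in each library. In the 8 genes from 44% to 48% GC the medians were -0.03, -0.35, 0.18 and 0.18, against 0.10, -0.24, 0.01 and 0.19 over all 1760 tested genes of that range, with the sign differing in siALDOA 1 of 90. In the 18 genes of 48% GC and above they were -0.24, -0.02, 0.14 and -0.14, against -0.20, 0.06, 0.12 and -0.13 over all 6562, with the sign differing in siALDOA 2 of 90. No such gene of the 37 differed 2-fold between siALDOA 1 and 2 in either line. Across the 37 genes GC content and the difference between siALDOA 1 and 2 had a Spearman rho of -0.88 in 90 and 0.83 in PANC-1, and -0.78 and 0.76 across the 11914 tested genes with a GC value. Genes are not independent replicates, and the values of a library share its preparation, so these are descriptions. Transcript length had a rho of -0.08 and 0.01 with the same differences.

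Some genes of low GC content did not follow. GINS3, at 43.6% GC, differed between siALDOA 1 and 2 by -0.13 in 90 and 0.17 in PANC-1 on the log2 scale. GINS1, at 41.4%, differed by 0.08 and -0.14. RPA3, at 45.9%, and RRM2, at 45.8%, lay close in GC to RFC4 (45.4%) and PCNA (45.3%). RPA3 differed by 0.04 and 0.16 and RRM2 by 0.35 and 0.01, whereas RFC4 differed by 1.23 and -1.35 and PCNA by 0.97 and -0.78. The part of GC content in the difference of single genes was not tested. The E2F-type promoter motifs were in 3 of the 7 genes (POLA1, POLE2 and RFC3) and in 14 of the other 25 with a window.

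**Figure D4:**
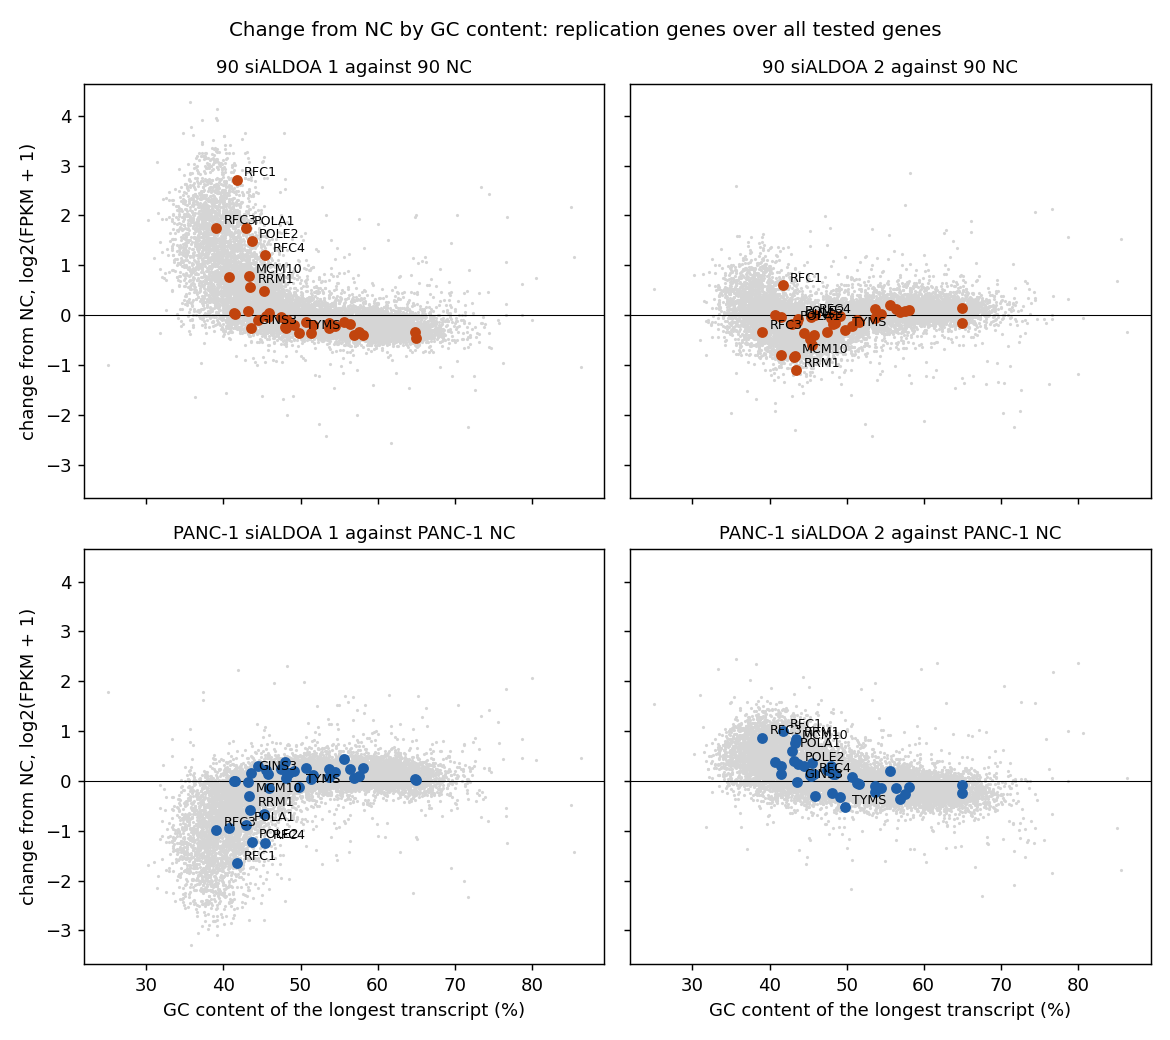
Change from NC on the log2(FPKM + 1) scale against the GC content of the longest transcript in each of the 4 siALDOA libraries, for the 37 replication genes (coloured) over all tested genes with a GC value (grey). Genes of low GC content lie mostly above 0 in siALDOA 1 of 90, where RFC1 reaches 2.71, and mostly below 0 in siALDOA 1 of PANC-1, where it reaches -1.65.

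A further 66 genes of replication, S-phase control and nucleotide metabolism were listed beside the 37, and all were tested. For PANC-1 against 90 limma called 16 of them, 9 higher and 7 lower, or 24.2% against 38.8% of all genes. The called genes with the largest differences on the higher side were CHAF1B, a chromatin assembly subunit (1.87, SE 0.19), CTPS1, which makes CTP (1.83, SE 0.15), the nucleoside diphosphate kinase NME1 (0.89, SE 0.17) and RNASEH2C of ribonuclease H2 (0.87, SE 0.19). CTPS1 was at 31.1 to 38.8 FPKM in 90 and at 115 to 139 in PANC-1, and CHAF1B at 3.69 to 5.51 and 17.2 to 19.9. On the lower side were SAMHD1, which degrades deoxynucleotides (-2.62, SE 0.30), the guanylate kinase GUK1 (-1.37, SE 0.18), the serine hydroxymethyltransferase SHMT1 (-0.82, SE 0.16) and POLD4, a small subunit of polymerase delta (-0.79, SE 0.19). SAMHD1 was at 42.3, 79.6 and 42.2 FPKM in NC, siALDOA 1 and siALDOA 2 of 90 and at 7.19, 6.44 and 9.67 in those of PANC-1. Of the 12 nucleotide supply genes among the 66, CTPS1, NME1, DTYMK and DUT were called higher and SAMHD1, GUK1 and SHMT1 lower. DTYMK and DUT are named here after their values were seen.

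For siALDOA against NC over both lines limma called 0 of the 66 (background 0.0%), and 0 reached an unadjusted p under 0.05. The smallest p-values were those of GUK1 (-0.38, SE 0.19) and POLE4 (-0.28, SE 0.17) on the lower side and ATAD5 (0.68, SE 0.76) and SAMHD1 (0.28, SE 0.32) on the higher. Between the siALDOA libraries, 29 of the 66 (43.9%) were at least 2-fold higher in siALDOA 1 in 90, against 20.8% of all tested genes. In PANC-1 27 (40.9%) were at least 2-fold lower, against 18.6%. Of the 66 genes 32 were below 44% GC, and these held 26 of the 29 and 26 of the 27.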

How the data were processed

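Poly(A)-selected RNA from the 6 libraries was sequenced, per the labels' protocols. The authors deposited 1 FPKM value per gene and library; HISAT2, featureCounts and hg38 are named in the submitters' processing notes, while their versions, the strand setting and the gene lengths were not stated. Of 41769 rows 1 had no gene name and was left out. Depth was estimated from microRNAs, snoRNAs and snRNAs, whose FPKM times RefSeq length fell on whole multiples (up to 8, tolerance 0.03) in 96.05% to 97.1% of values. Fragments of other genes were not rebuilt, so the test was limma (version 3.58.1, R 4.3.3, variance trend on) applied to log2(FPKM + 1), a scale that understates changes of low genes. Its models were line plus siALDOA, with 3 residual degrees of freedom, and 4 group means, with 2, where a single NC is taken to be as variable as siALDOA. The line plus siALDOA model was also run on simulated data. Noise there was drawn separately for each gene and library, whereas deviations in the data went with GC content across genes. That run therefore does not show how the model behaves under such a shared spread. GC content came from each gene's longest transcript in GENCODE v29 and was found for 94.6% of tested genes; its ranges were divided at 44% and 48% after values were seen. The members and lists were chosen with earlier results of these data known. Each of the 37 genes is covered by a value, range or count. Among the 66 further genes, 1 of which the table lists under an older symbol, those named are up to 4 called in each direction by size, or the 2 smallest p in each direction when none was called. Alternatives were another pseudocount, no low-value filter, other scalings, a GC correction, limma without the trend, leaving out libraries and a replicate block.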

Additional observations from a re-analysis of the deposited data

Results flagged for a closer look

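In 8 of the 37 genes both siALDOA libraries lay below NC in 90 and above NC in PANC-1, a pattern that 7.3% of all tested genes showed. The 8 lay between 44.5% GC (RFC5) and 50.7% GC (ORC1), whereas that background covers genes of any GC content. ORC6, CDC6, GINS4, RFC5 and RRM2 lay from 44% to 48% GC, where all tested genes had median changes of 0.10 and -0.24 in siALDOA 1 and 2 of 90. In those of PANC-1 the medians were 0.01 and 0.19. ORC1, MCM4 and RPA1 lay in the range of 48% GC and above. There the medians over all tested genes were -0.20 and 0.06 in siALDOA 1 and 2 of 90 and 0.12 and -0.13 in those of PANC-1. The part of GC content in this pattern was not tested. The mean change in PANC-1 minus that in 90 was 0.60 for CDC6, 0.52 for RFC5, 0.49 for GINS4, 0.41 for ORC6, 0.36 for RRM2, 0.33 for ORC1, 0.29 for MCM4 and 0.29 for RPA1, on the log2(FPKM + 1) scale. Both siALDOA libraries of a line share its NC library. In the limma test of the difference between the lines' effects none of the 8 passed: over all genes 0 were called, and of the 37 genes 0 reached an unadjusted p under 0.05. Beside them, 2.61% of all tested genes and 0 of the 37 showed the opposite pattern.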

How the results depend on the processing

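For PANC-1 against 90 the 14 calls among the 37 genes became 6 after scaling by the median ratio, 7 with a replicate block and 24 in the block with crossed numbers, and 3 to 12 without each library in turn. Over all genes 4882 were called, 3516 after that scaling, 3258 with the block, 7594 with crossed numbers, and 2422 to 4110 without a library. The block pairs libraries of the same name across lines. Same-numbered siALDOA libraries deviated in opposite directions (r = -0.859 across tested genes). Whether a number marks the same siRNA or preparation in both lines was not stated. Crossed numbers were added after seeing the data, and the cause was not tested. NC carries no shared number, so no paired analysis was possible because siALDOA and NC share none. The siALDOA comparisons called 0 of the 37 under each alternative run. Without a filter on low values, where 27007 genes were tested, 38 genes were called in 90 and 49 in PANC-1, all of them lower in siALDOA. The fit without siALDOA 1 of both lines left a single library in each group. Uncalled differences between the lines that turned sign were MCM2 (-0.11 by median ratio, -0.0511 by quantile normalization), MCM3 (-0.0417 by median ratio, -0.0121 after GC correction), GINS4 (-0.0278 and -0.067 likewise), RPA1 (0.0051 as TPM) and RFC1 (-0.0377 at a pseudocount of 0.1, -0.10 by median ratio, -0.0495 by quantile normalization, -0.20 after GC correction). Without each library in turn, the uncalled differences that turned sign ran from -0.142 to 0.141 for MCM2, -0.606 to 0.311 for MCM10, -0.0093 to 0.252 for GINS4, -1.06 to 0.0327 for POLA1, -0.661 to 0.946 for RFC1, -1.14 to 0.063 for RFC3, -0.141 to 0.156 for RFC5, -0.0573 to 0.0854 for RPA1 and -0.0819 to 0.877 for RRM1. The median over all tested genes moved from 0.13 to 0.03 by median ratio, where 1527 genes were called higher and 1989 lower in PANC-1 against 2567 and 2315, and to 0.0011 after GC correction. Leaving out a line's NC ends the comparisons within that line, which were not run. Depth limits POLA1 and RFC1 most.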
